A study of Mus musculus with 8 samples.

Results

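The genes described here make cholesterol and fatty acids or move cholesterol out of the cell, followed across 8 microarrays of mouse bone marrow derived macrophages. They were 35 listed genes, taken wherever the platform annotation gave a probe set (a group of array probes that reports 1 transcript) to that gene alone. Such a probe set was found for 31 of the 35 genes, among 12393 genes so named on the array. It was not found for Acat2, Insig1, Nr1h2 and Soat1, which have no values here. The 31 genes had 62 probe sets, and 19 of them had more than 1. By role they were 15 genes of sterol synthesis, 4 of the SREBP control system, 9 of fatty acid synthesis and 3 of efflux and its LXR control.

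Marrow cells were grown in M-CSF at 50 ng/ml for 7 days, which yields macrophages. The mice were wild type or Vdr-/- (labelled Vdr tm1 Rge, a knockout of Vdr, which encodes the vitamin D receptor), and no age is stated for them in these sources. Cells of each genotype were untreated, or were given calcitriol (1alpha,25(OH)2D3, the hormonal form of vitamin D), IFN-gamma (a cytokine of T cells and NK cells that activates macrophages), or both, for 24 to 48 hours at doses the sources used here do not give. That made 8 groups with 1 array each, so tests compared treatments over matched pairs of arrays, and genotype cannot be told apart from differences between mice or cultures. In total RNA of a culture, fewer cells of a type and less RNA per cell cannot be told apart.

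Cells control their cholesterol through 2 opposed transcription systems. When sterols are scarce, Scap carries the SREBP precursors, encoded by Srebf1 and Srebf2, from the endoplasmic reticulum to the Golgi, where they are cut and released to switch on synthesis genes. When sterols are plentiful, Insig proteins hold Scap back, and oxidised sterols activate the LXR receptors, which switch on the export pumps Abca1 and Abcg1. In macrophages this balance is known for its part in foam cell formation, and interferons are known to alter it.

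The promoters of 3 genes are shown because these genes, 2 of synthesis and 1 of efflux, were the members whose 4 signals with IFN-gamma all lay below the 4 without it. The sequences run from 250 bases before to 50 bases after the start of transcription, from RefSeq on GRCm38.p6. Capitals mark matches to the sterol response element TCACNCCAC, to which SREBP binds, and to the NF-Y box CCAAT, which reads ATTGG on the opposite strand. Hmgcs1 lies at chr13:119690101-119690400 on the plus strand, Cyp51 at chr5:4104648-4104947 on the minus strand and Abca1 at chr4:53159846-53160145 on the minus strand.
Hmgcs1: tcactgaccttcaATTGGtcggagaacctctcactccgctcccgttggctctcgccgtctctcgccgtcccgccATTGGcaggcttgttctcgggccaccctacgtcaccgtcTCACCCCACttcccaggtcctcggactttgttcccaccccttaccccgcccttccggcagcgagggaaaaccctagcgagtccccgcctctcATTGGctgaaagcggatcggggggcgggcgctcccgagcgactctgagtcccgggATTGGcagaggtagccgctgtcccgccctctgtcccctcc
Cyp51: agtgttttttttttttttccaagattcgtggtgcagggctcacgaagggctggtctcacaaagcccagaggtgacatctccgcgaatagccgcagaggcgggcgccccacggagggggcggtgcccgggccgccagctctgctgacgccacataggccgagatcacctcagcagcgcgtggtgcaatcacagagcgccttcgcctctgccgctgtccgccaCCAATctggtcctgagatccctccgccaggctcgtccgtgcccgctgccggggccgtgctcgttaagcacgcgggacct
Abca1: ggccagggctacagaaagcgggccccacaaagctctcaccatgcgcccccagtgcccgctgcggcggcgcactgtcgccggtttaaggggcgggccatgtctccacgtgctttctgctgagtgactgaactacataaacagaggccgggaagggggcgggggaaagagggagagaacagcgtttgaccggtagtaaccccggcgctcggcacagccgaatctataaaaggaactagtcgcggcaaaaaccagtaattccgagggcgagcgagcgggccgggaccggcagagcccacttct

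The Hmgcs1 window held 1 match to the sterol response element, TCACCCCAC, 137 bases before the start, and 4 matches to the NF-Y box. Cyp51 held 1 NF-Y box, 29 bases before its start, and no exact match to the sterol response element. The Abca1 window held no exact match to any motif searched. The sterol response element was found in 1.24% of all 32851 promoters of the table, searched on both strands, and in 1 of the 28 member genes with an entry. At least 1 promoter with the NF-Y box was found for 12 of the 13 sterol synthesis genes with an entry and for 1 of 4 genes of efflux and its control. Counted by promoter, the box was in 12 of 16 sterol synthesis promoters (75%), against 37.4% of all promoters. The LXR motif, the direct repeat 4 element of nuclear receptors, was searched for only as an exact string of letters. That string was in 7 of all 32851 promoters (0.0213%) and in 0 of 37 member promoters. It is too rare for this count to tell member promoters from others, so nothing is concluded from it about LXR sites, in Abca1 or elsewhere. These counts describe exact matches to the letters in the windows and do not show binding. Sites that differ from these letters were not searched for, so a count of 0 does not show that a site is absent. Fdps, Fdft1, Sqle, Scd1, Scd2, Fads1 and Abcg1 have no entry in the table.

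The values are deposited fluorescence signals in arbitrary units, comparable between arrays for 1 probe set but not between genes. Signals under 15.5, the 25th percentile of all values, were raised to it before taking log2 and are called floor values below; they made up 77 of the 496 member values (15.5%). A probe set was tested where its highest signal reached 59.1, the median of all values. This kept 59 of the 62 member probe sets and 30 of the 31 genes; Acaca, the first enzyme of fatty acid synthesis, did not exceed 53.8. Each gene is represented by its brightest tested probe set unless others are named, and 10437 genes were tested in this way.

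Some arrays stood apart. Vdr went against the labels of both untreated arrays: its probe sets read 6.7 and 5.3 on the array labelled wild-type untreated but 90.3 and 63.2 on the array labelled Vdr-/- untreated, so directions that rest on these arrays are given with that reservation. Which stretch of Vdr the allele removes and where the probes lie were not known here, which limits this check. On the remaining wild-type arrays the 2 Vdr probe sets read 51.5 and 118.1 with calcitriol, 84.4 and 82.9 with IFN-gamma and 226.7 and 385.9 with both, against 2.6 and 9.8, 45.6 and 2.5, and 25 and 23.6 on the Vdr-/- arrays. The ratio of 3' to 5' control signal of Gapdh, which rises when RNA is truncated, reached 7.67 for wild type with calcitriol and 4.82 for the array labelled Vdr-/- untreated, against 0.853 to 3.06 on the other 6. All 9 macrophage marker genes were tested, with summed signals of 55480.9 to 84375.2 per array. The summed signal of 8 stromal markers was 472.1 to 1227.9 without IFN-gamma and 229.2 to 392.3 with it, with Dcn below 59.1 on every array; neutrophil markers gave 312.1 to 449 and 223.1 to 293.1. Without and with IFN-gamma, the sums were 91.3 to 321.8 and 111.9 to 303.4 for lymphocyte markers. They were 724.6 to 1443.5 and 927.2 to 2419.8 for dendritic cell markers, and 24.2 to 126 and 70.6 to 199 for adipocyte markers. The neutrophil markers Elane, S100a9 and Prtn3, the lymphocyte markers Cd3e and Cd3g, the dendritic cell markers Ccr7 and Cd209a and the adipocyte marker Cidec did not reach 59.1 on any array. Other genes of these lists did, among them S100a8 (up to 209.7), Ncr1 (71.7), Itgax (1279.2), Cd83 (966.4) and Retn (83.3), so these cell types are not shown to be absent.

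IFN-gamma lowered 2 of the 30 tested genes, Hmgcs1 at the entry of cholesterol synthesis and the cholesterol efflux pump Abca1, by 2.67-fold and 2.64-fold, and raised 0. The test was limma over 4 array pairs that share genotype and calcitriol, with p-values adjusted by Benjamini-Hochberg over the 18058 probe sets tested. At 0.05 it called 3.43% of them. The called share was 6.67%, against 3.96% of all tested genes called in either direction and 1.55% called lower. With 30 genes, a share of this size rests on 2 genes and was not itself tested. By the unadjusted p under 0.05, 5 of the 30 were lower and 0 higher, against 13.1% of all tested genes in either direction. The median change was -0.29 log2 over the 15 sterol synthesis genes, -0.23 over the 4 control genes, -0.22 over the 8 fatty acid genes and -0.44 over the 3 efflux genes, against -0.09 over all tested genes. Over the alternatives run, the efflux median ranged from -0.97 to -0.20, the fatty acid median from -0.53 to -0.12 and the control gene median from -0.23 to -0.05. The sterol synthesis median ranged from -0.42 to 0.06, and the positive value was that over the 9 genes that a stricter signal filter kept.

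Direction was also compared across the pairs. In every one of the 4 pairs the signal was lower with IFN-gamma for 6 of the 30 genes (20%), namely Hmgcs1, Idi1, Cyp51, Srebf1, Scd1 and Abca1, against 11.1% of all tested genes. For 3 of them (10.0%), Hmgcs1, Cyp51 and Abca1, the 4 signals with IFN-gamma lay wholly below the 4 without, against 4.03% of all tested genes. Scd2 was the 1 gene higher in all 4 pairs and the 1 gene wholly above (3.33% each), against 7.95% and 3.43% of all tested genes. The shares for higher signals did not exceed the background. With 30 genes, the shares for lower signals rest on the 6 and 3 genes named, and their excess over the background was not tested.

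**Figure D1:**
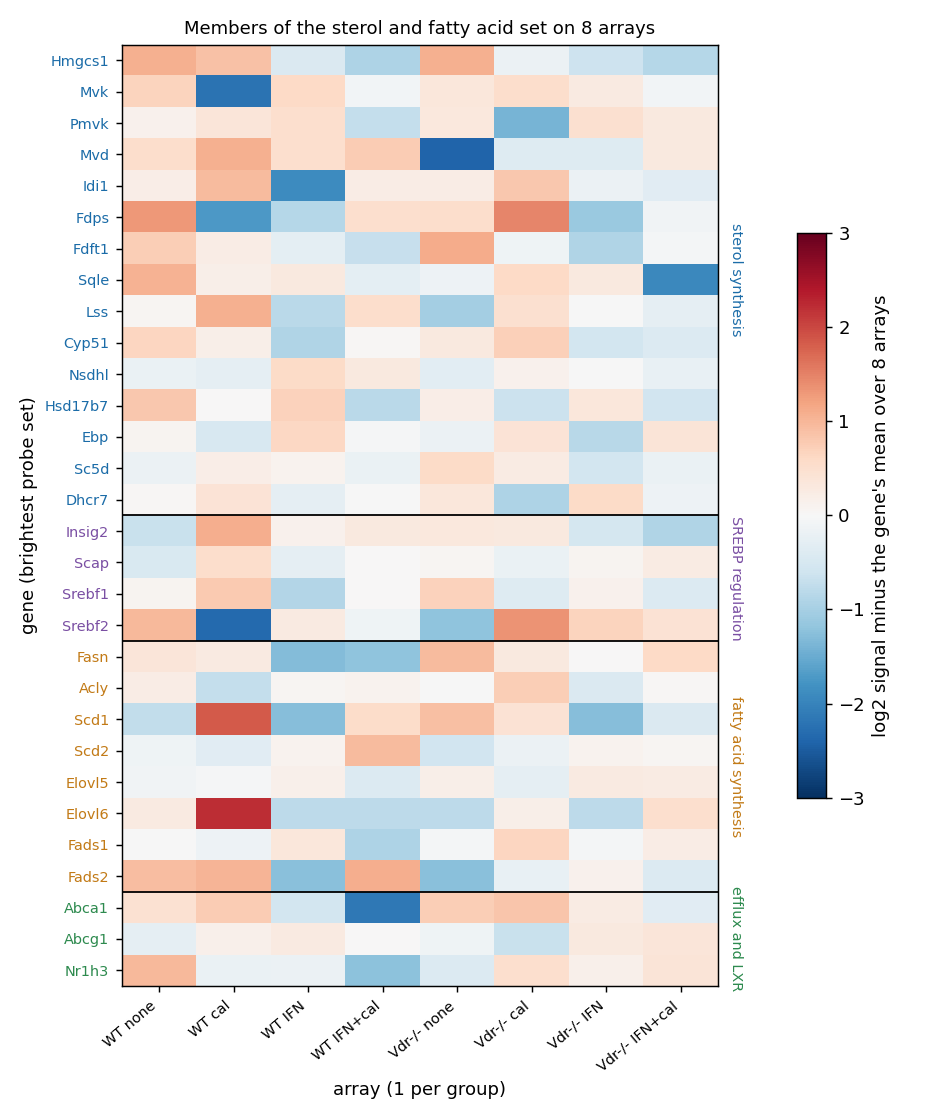
Heat map of the 30 tested genes (rows, grouped by role) on the 8 arrays (columns, 1 array per group; WT, wild type; cal, calcitriol). Colour is the log2 floored signal minus the gene's mean over the 8 arrays, from blue (lower) to red (higher). Hmgcs1 in the top row is red on the arrays without IFN-gamma except the Vdr-/- calcitriol array, and blue on all 4 arrays with it.

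Among the sterol synthesis genes, Hmgcs1 encodes the cytosolic synthase that makes HMG-CoA, the substrate of the rate-limiting reductase. Its brightest probe set read 1049.7, 919.8, 375.7 and 264 on the wild-type arrays with no treatment, calcitriol, IFN-gamma and both, and 1058.9, 446.6, 328.1 and 277.4 on the Vdr-/- arrays in the same order. The groups with and without IFN-gamma did not overlap, and the Vdr-/- calcitriol array was the lowest of those without. IFN-gamma lowered Hmgcs1 by 2.67-fold (-1.42 log2, SE 0.247, limma adjusted p = 0.000653). The single pairs gave -1.48 and -1.80 in wild type without and with calcitriol, and -1.69 and -0.69 in Vdr-/- cells.

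Hmgcs1 had 4 probe sets, and each was lower with IFN-gamma in 4 of 4 pairs. A further one passed the test at -1.63 log2 (SE 0.415, adjusted p = 0.0244), with signals of 159.2 to 227.5 without IFN-gamma and 35.8 to 89 with it. Its call was lost with any 1 of the 4 pairs left out (-1.82 to -1.45, adjusted p = 0.131 to 0.282), with additive covariates in place of the pairs (0.0534) and without the 2 arrays of highest Gapdh ratio (-1.79, 0.349) or the untreated arrays (-1.75, 0.755). The remaining 2 gave -1.16 (adjusted p = 0.177) and -1.50 (adjusted p = 0.104), and their signals spanned 53.1 to 176.3 and 44.8 to 368.3. The Hmgcs1 change stayed between -1.15 and -1.66 log2 under every alternative run, but the call was lost with no signal filter (adjusted p = 0.12), with no intensity trend (0.258) and in most fits with arrays removed: the change was -1.39 (adjusted p = 0.105) and -1.29 (0.135) without the wild-type pairs lacking and given calcitriol, -1.32 (0.187) without the Vdr-/- pair lacking calcitriol, -1.15 (0.28) without the 2 arrays of highest Gapdh ratio and -1.24 (0.755) without the untreated arrays. Here and below, fits without the last 2 kinds of array also took additive covariates in place of the pairs. Exchanging the 2 untreated arrays would leave the mean over the 4 pairs as it is. Of the markers, the stromal genes Col3a1 (-2.02, adjusted p = 0.0308) and Fn1 (-1.49, adjusted p = 0.0351) also fell with IFN-gamma, and the part of stromal cells in the Hmgcs1 and Abca1 falls was not tested.

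No other sterol synthesis gene passed the test. Idi1, which isomerises isopentenyl diphosphate, read 83.1, 140.3, 19.6 and 84.8 in wild type and 83.9, 127.1, 64.5 and 57.1 in Vdr-/- cells. The wild-type IFN-gamma array was far below the rest and the groups overlapped slightly, at -1.09 log2 (SE 0.517, adjusted p = 0.391). Cyp51, the lanosterol demethylase, read 135.9, 97.9, 46.6 and 89.7 in wild type and 106.5, 143.6, 59.4 and 65.1 in Vdr-/- cells. Here the groups did not overlap, but the margin was narrow, from 89.7 to 97.9, and the change of -0.91 (SE 0.468, adjusted p = 0.441) was within the spread between pairs. A second Cyp51 probe set was lower in the 2 wild-type pairs and higher in the 2 Vdr-/- pairs.

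The other 12 sterol genes ranged from -0.97 to 0.60 log2, and 6 of the 15 in all had a positive change. Without the 2 arrays of highest Gapdh ratio, 11 of the 15 had a negative change. Fdft1, the squalene synthase, spanned 81.3 to 330.3 (-0.97, SE 0.375, adjusted p = 0.23). It was lower with IFN-gamma in 3 of 4 pairs. Sqle, the squalene epoxidase, spanned 21.5 to 166.8, and Fdps, the farnesyl diphosphate synthase, spanned 9.6 to 139.3. The early kinases Mvk (12.5 to 115.1) and Pmvk (49.6 to 184.1) and the decarboxylase Mvd (5.4 to 173) gave small positive mean changes that did not pass. Mvk was lower in 3 of 4 pairs, and the wild-type pair with calcitriol, which holds its floor value of 12.5, gave 2.13 log2. Mvd was lower in 2 of 4 pairs, and the Vdr-/- pair that holds its floor value of 5.4 gave 2.03. Late enzymes of the pathway were measured at 29.2 to 122.8 for Lss, 144.9 to 268.7 for Nsdhl, 21.7 to 67.1 for Hsd17b7, 268.7 to 730.8 for Ebp, 130.8 to 284.6 for Sc5d and 62.6 to 175.5 for Dhcr7. None of them moved 1 way in all 4 pairs.

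None of the 4 measured genes of the SREBP control system passed. Srebf1 read 237.6, 384.6, 120.9 and 225.6 in wild type and 358.5, 170.5, 242.5 and 169 in Vdr-/- cells. It was lower with IFN-gamma in 4 of 4 pairs, by -0.58 log2 (SE 0.300, adjusted p = 0.446), although the groups overlapped and the last pair differed by only -0.01. Without the 2 arrays of highest Gapdh ratio it was -0.14 (adjusted p = 0.931). Srebf2 read 216.1, 22, 132.9 and 101.5 in wild type and 47.5, 280.4, 175.1 and 148.6 in Vdr-/- cells. Its 2 lowest signals lay on the 2 arrays of highest Gapdh ratio, and the IFN-gamma change of 0.62 (SE 0.499, adjusted p = 0.69) was higher in 2 pairs and lower in 2. It turned to -0.85 (adjusted p = 0.485) without those 2 arrays. Scap, the escort protein gene, spanned 236.7 to 469.5 (0.04, SE 0.267), and Insig2, the retention protein gene, spanned 96.9 to 384.6 (-0.50, SE 0.354, adjusted p = 0.64, and -0.06 without the 2 arrays).

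In fatty acid synthesis 0 of 8 tested genes passed, 0 were higher and 1 lower by the unadjusted p, and 6 had a negative change. Fasn, the fatty acid synthase, read 138.5, 129.1, 43.2 and 46.4 in wild type and 206.2, 130.9, 107.7 and 162.8 in Vdr-/- cells. The 2 wild-type arrays with IFN-gamma were the lowest, and the mean change was -0.94 log2 (SE 0.439, adjusted p = 0.371). Scd2, a stearoyl-CoA desaturase that makes oleate, read 186.1, 161.3, 221.3 and 392.5 in wild type and 138.3, 180.2, 221.1 and 212.4 in Vdr-/- cells. It was higher with IFN-gamma in 4 of 4 pairs without overlap, by 0.61 (SE 0.313, adjusted p = 0.441), and its other 2 probe sets were higher in 3 of 4. Scd1, its paralog, spanned 2.2 to 135.6 with 2 arrays at the floor and gave -1.23 (SE 0.636, adjusted p = 0.449), so the 2 desaturase genes had opposite signs.

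Acly, which supplies cytosolic acetyl-CoA, spanned 294.6 to 812.2 and changed by -0.12 log2 (SE 0.261, 95% interval -0.66 to 0.42). The elongase Elovl5 spanned 699.6 to 1113.3 (0.13, SE 0.221, interval -0.33 to 0.58), and the desaturase Fads1 spanned 150 to 447.9 (-0.21, SE 0.281, interval -0.79 to 0.37). For the brightest probe sets of these 3 genes the intervals leave out a change of 2-fold in either direction. Another Acly probe set did not follow. It changed by 0.02 and 3.03 log2 in wild type without and with calcitriol, and by 3.29 and -0.16 in Vdr-/- cells. Its large changes lay in the pairs that hold the 2 arrays of highest Gapdh ratio, where it read 22.2 and 20. The remaining Acly sets had lower means with IFN-gamma. Fads2 (8.1 to 79.2) and the elongase Elovl6 (3.9 to 124.4) were at the floor on 2 and 4 arrays and give little information.

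On the efflux side Abca1, which loads cholesterol onto apolipoprotein A-I, fell with IFN-gamma, while the LXR target Abcg1, which exports cholesterol to HDL, and Nr1h3, which encodes LXR-alpha, did not pass. The brightest Abca1 probe set read 1459.1, 1799.3, 716.8 and 238.6 in wild type and 1757.4, 1872.2, 1247.8 and 831.1 in Vdr-/- cells. All 4 signals with IFN-gamma lay below all 4 without, and the wild-type array with both agents was far the lowest. The change was 2.64-fold (-1.40 log2, SE 0.281, limma adjusted p = 0.00287). A second Abca1 probe set was lower in 4 of 4 pairs (-0.91, SE 0.289, adjusted p = 0.101), and another was lower in 3 of 4 (-0.76, SE 0.592, adjusted p = 0.678).

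The Abca1 change depended on the wild-type pair with calcitriol more than on any other pair. Without that pair it was -0.90 log2 (adjusted p = 0.2). It was -1.53 (0.243) without the wild-type pair lacking calcitriol, -1.70 (0.214) without the Vdr-/- pair lacking it, -1.35 (0.234) without the 2 arrays of highest Gapdh ratio and -2.04 (0.545) without the untreated arrays. With no signal filter or no intensity trend the call was also lost (adjusted p = 0.413 and 0.376). The single pairs gave -1.03 and -2.91 in wild type without and with calcitriol and -0.49 and -1.17 in Vdr-/- cells. The fall was thus nominally larger in wild type, by -1.14 (SE 0.530, unadjusted p = 0.0426), but the difference did not pass adjustment (limma adjusted p = 0.996). It turned to 0.15 without the 2 arrays of highest Gapdh ratio and to 0.49 with the mean over the 3 probe sets.

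**Figure D2:**
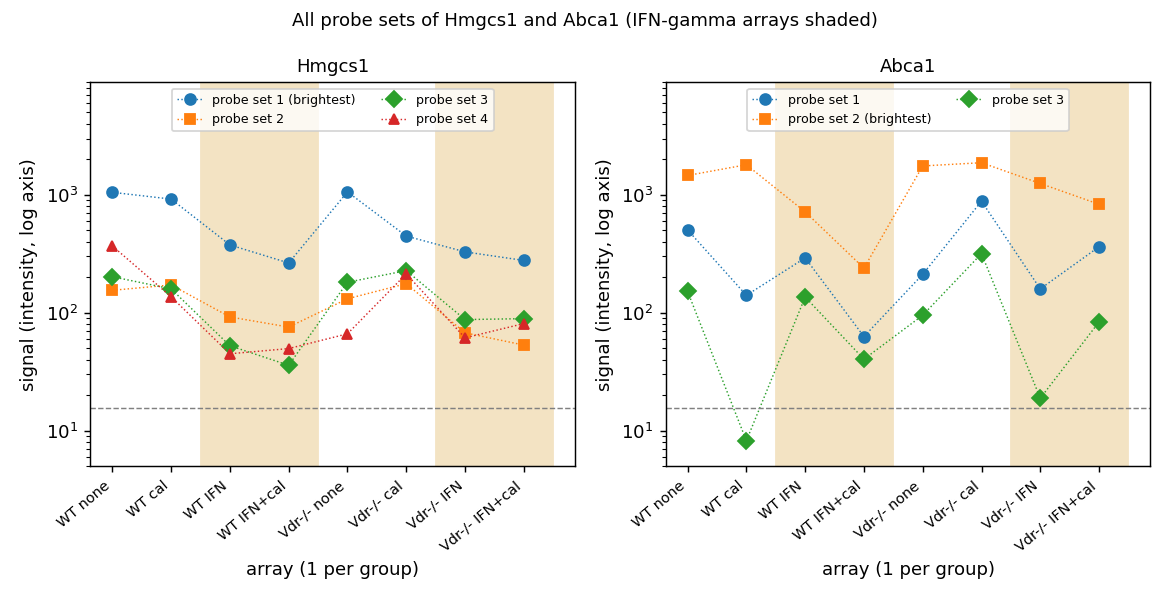
Signals of the 4 Hmgcs1 and 3 Abca1 probe sets on the 8 arrays (log axis; WT, wild type; cal, calcitriol), with IFN-gamma arrays shaded and the floor of 15.5 dashed. The brightest Hmgcs1 set lies at 264 to 375.7 on shaded arrays and at 446.6 or more elsewhere, while the 2 other Abca1 sets follow a different order from the brightest.

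Abcg1 read 892, 1181.8, 1292.2 and 1072.3 in wild type and 978, 676.1, 1301.6 and 1372.5 in Vdr-/- cells. It was higher with IFN-gamma in 3 of 4 pairs with overlapping groups (0.46, SE 0.225, adjusted p = 0.413), and its 95% interval of -0.01 to 0.92 leaves out a fall of the size of Abca1's. Nr1h3 read 174.2, 76.9, 78.4 and 37.8 in wild type and 66.7, 126.5, 97.9 and 115 in Vdr-/- cells. The array labelled wild-type untreated was the highest and the wild-type array with both agents the lowest, and the IFN-gamma change was -0.44 (SE 0.473, adjusted p = 0.785). The wild-type array with both agents was thus lowest for Abca1 and for Nr1h3, and on it the summed macrophage marker signal was also the lowest of the 8, at 55480.9. Of the 9 markers, Csf1r (9768.9), Mertk (561.5) and Cd14 (228.3) were lowest on this array. Adgre1, Cd68, Itgam, Lyz2, Fcgr1 and Ctss were lower on other arrays, so the low sum was not general to the markers. The part of these marker signals in the Abca1 and Nr1h3 values was not tested.

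**Figure D3:**
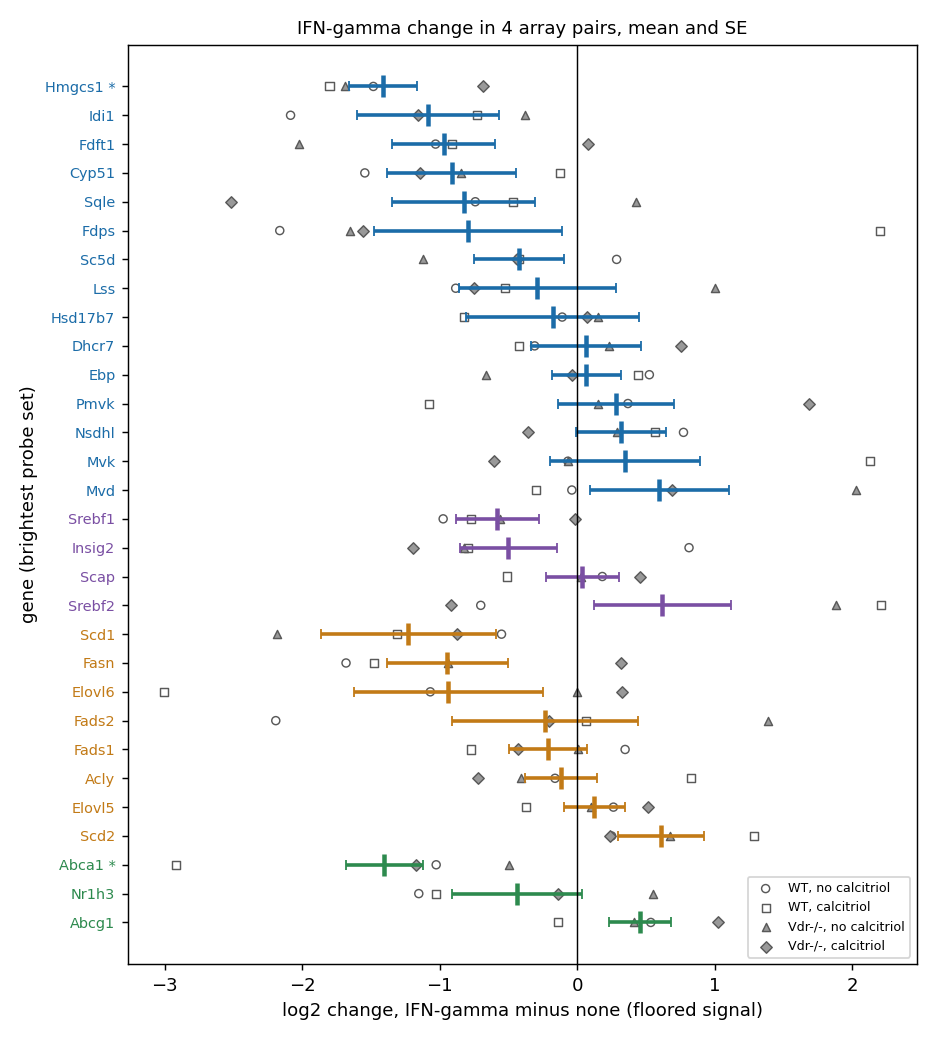
IFN-gamma change of each tested gene (brightest probe set) on the log2 scale of floored signals, ordered within the 4 role groups. Grey symbols are the 4 array pairs, the coloured tick is their mean and the bar its SE; asterisks mark the 2 called genes, Hmgcs1 and Abca1, and the pairs of most other genes lie on both sides of 0.

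Neighbouring genes of both systems were taken from further lists. Of 17 further SREBP pathway genes 12 were tested, and 0 were called for IFN-gamma, with 2 lower and 0 higher by the unadjusted p and a median of -0.22 log2. The 2 were Msmo1, a sterol C4-methyl oxidase (-0.84, SE 0.303, adjusted p = 0.173), and Aacs, the acetoacetyl-CoA synthetase (-1.33, SE 0.531, adjusted p = 0.259). Of 16 further genes of sterol handling and LXR response 14 were tested, and 1 rose with IFN-gamma and 0 fell by the brightest probe set, with a median of 0.03. Of all tested genes, 2.40% were called higher. By the unadjusted p, 1 of the 14 was higher and 4 were lower. Of all 10437 tested genes, 661 were higher and 710 lower by that p. The 1 higher gene of the 14 was Ch25h, the enzyme that makes 25-hydroxycholesterol, an oxysterol known to restrain SREBP processing. Ch25h read 27.5, 97.4, 240.8 and 74.4 in wild type and 14.8, 35.2, 202 and 165.8 in Vdr-/- cells.

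The 2 highest Ch25h signals were those with IFN-gamma alone, and the wild-type pair with calcitriol went the other way. The mean rise was 2.17 log2 (SE 0.592, limma adjusted p = 0.0398). It did not pass with any 1 of the 4 pairs left out (1.66 to 3.02, adjusted p = 0.638 to 0.112), and it was 0.92 (adjusted p = 0.828) without both untreated arrays. It was 2.33 (adjusted p = 0.306) without the 2 arrays of highest Gapdh ratio. Pltp, the phospholipid transfer protein gene, had 1 probe set that passed at -1.46 (SE 0.304, adjusted p = 0.004) and a brighter one that gave -0.03 (SE 0.366). The call of the first was lost with any 1 pair left out (-1.79 to -0.91, adjusted p = 0.07 to 0.35), with additive covariates (0.0766) and without the 2 arrays of highest Gapdh ratio (-1.90, 0.504) or the untreated arrays (-2.38, 0.755). The 2 Pltp probe sets thus disagreed on IFN-gamma.

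Genotype moved none of the 30 genes past the threshold, and it called 0 of all 18058 probe sets (0% of genes). By the unadjusted p, 1 member was higher and 1 lower in wild type, against 3.35% of all tested genes. These were Mvd (1.44 log2, wild type minus Vdr-/-, SE 0.548), whose signal of 5.4 on the array labelled Vdr-/- untreated was the lowest, and Abca1 (-0.73, SE 0.313). The median over the 30 genes was 0.04, against 0.03 over all tested genes. IFN-gamma effects did not differ between the genotypes for any member or any other probe set after adjustment (0 called, 0% of genes), with 1 member, Abca1, under the unadjusted threshold, against 3.53% of all tested genes.

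Calcitriol changed none of the 30 genes by the brightest probe set, in wild type (0 called, against 0.498% of all tested genes) or in Vdr-/- cells (0 called, against 0.144%). In wild type, 1 gene was higher and 2 lower by the unadjusted p, against 10.1% of all tested genes, and in Vdr-/- cells 1 was higher and 1 lower, against 5.96%. The wild-type genes were Scd1 (2.20 log2, SE 0.930), Mvk (-1.79, SE 0.767) and Srebf2 (-1.84, SE 0.720), and for all 3 the wild-type calcitriol array, the one of highest Gapdh ratio, held the extreme signal. For Hmgcs1 the calcitriol change was -0.35 (SE 0.357) in wild type and -0.74 (SE 0.357) in Vdr-/- cells. The calcitriol effects of the genotypes differed for 0 of 30 genes, against 1.28% of all tested genes, and by the unadjusted p for Srebf1, Srebf2 and Ebp, against 11.5%.

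A dimmer Abca1 probe set was called with calcitriol in wild type. Both dimmer sets were called for the difference of calcitriol effects between the genotypes. The brightest set was called for neither. The second set read 503.8, 140.3, 291.8 and 62.7 in wild type and 211.5, 883, 159.1 and 362.6 in Vdr-/- cells. It was lower with calcitriol in both wild-type pairs and higher in both Vdr-/- pairs. The wild-type fall was 4.09-fold (-2.03 log2, SE 0.422, limma adjusted p = 0.0251), where 0.576% of all probe sets were called. Its call was lost without the 2 arrays of highest Gapdh ratio (-2.09, adjusted p = 0.599) and without the untreated arrays (-2.25, 0.844). In Vdr-/- cells the change was 1.63 (SE 0.422, adjusted p = 0.146). The difference of the genotypes was -3.66 (SE 0.597, adjusted p = 0.00221), where 1.50% of all probe sets were called.

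A further Abca1 probe set, the dimmest, read 151.4, 8.2, 135.8 and 40.3 in wild type and 95.1, 317.1, 18.8 and 83.5 in Vdr-/- cells. It too was lower with calcitriol in both wild-type pairs and higher in both Vdr-/- pairs, with a difference of -4.46 (SE 1.07, adjusted p = 0.0311). The brightest set gave -0.39 (SE 0.530, adjusted p = 0.807, 95% interval -1.49 to 0.70), so the 3 probe sets of this gene disagree on calcitriol, and which of them reports the Abca1 level was not tested. The differences rest partly on the untreated arrays, whose labels the Vdr signal goes against within the limits of that check. Without these arrays the second and the dimmest set gave -3.47 and -5.56 (adjusted p = 0.83 for both), and without the 2 arrays of highest Gapdh ratio -3.41 and -3.90 (adjusted p = 0.702 for both), each fit having 1 residual degree of freedom and an IFN-gamma effect shared by the genotypes.

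Beside these Abca1 values, 4 of the 9 macrophage markers were also called lower in the same difference of calcitriol effects, against 1.07% of all tested genes. They were Fcgr1 (-3.79), Itgam (-3.63), Cd14 (-2.73) and Cd68 (-2.70). The other markers were not called, and 3 of the 9 had a positive difference, of at most 0.37. Itgam read 396.8, 80, 344.3 and 105.8 in wild type and 155.8, 977.6, 199.7 and 301.1 in Vdr-/- cells, so the Vdr-/- calcitriol array was highest and the 2 wild-type arrays with calcitriol lowest, as for the second Abca1 set. The same arrays were highest and lowest for Pltp, at 2901.9, 249.8, 1300.6 and 332.5 in wild type and 337.2, 4136, 1484.5 and 1442.8 in Vdr-/- cells. It fell with calcitriol in wild type (-2.75 log2, SE 0.519, adjusted p = 0.014), with a difference of -4.54 (SE 0.734, adjusted p = 0.00205). Both calls were lost without the 2 arrays of highest Gapdh ratio, at -1.88 (adjusted p = 0.599) and -1.93 (0.702). The 1 gene of the further sterol handling list called for this difference by the brightest probe set was Pltp. The part of these marker changes in the Abca1 and Pltp values was not tested.

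Some member probe sets, like others on the array, had their extreme signals on the 2 arrays of highest Gapdh ratio. The wild-type calcitriol array and the array labelled Vdr-/- untreated held the 2 lowest signals for 7 of 59 member probe sets (11.9%), against 6.92% of all tested probe sets, and the 2 highest for 8 (13.6%), against 11.6%. The 7 included every Scd2 probe set. These shares rest on few probe sets, their excess over all tested probe sets was not tested, and nothing particular to the members is concluded. The examples that follow were taken from these sets. Acly split within the gene. On these 2 arrays 1 of its probe sets read 22.2 and 20, against 180.9 to 277.6 on the other 6, while another read 252.6 and 241.7, against 130.3 to 202.5.

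The brighter Srebf2 set read 22 and 47.5 on these arrays, against 101.5 to 280.4 elsewhere, while Srebf1 read 384.6 and 358.5, against 120.9 to 242.5. All 3 Scd2 probe sets were lowest there, and the brighter Scd1 set was highest, at 135.6 and 70.2 against 2.2 to 54.8. Because 1 of these arrays was wild type with calcitriol and the other was labelled Vdr-/- untreated, their signals enter the difference of calcitriol effects with the same sign. The nominal differences were 1.59 log2 (SE 0.607) for Srebf1 and -3.00 (SE 1.02) for Srebf2. As these sets were picked for their extreme signals on those 2 arrays, the signs follow largely from the choice. They are no separate evidence, and the part of the Gapdh ratio in them was not tested. Of 18 members with several tested probe sets, 11 (61.1%) had the same sign of IFN-gamma change in all of them, against 51.0% of 3823 such genes. For genotype the shares were 55.6% and 46.5%. For calcitriol they were 44.4% and 44.5% in wild type and 27.8% and 43.2% in Vdr-/- cells. For the differences of calcitriol and of IFN-gamma effects they were 44.4% and 43.7%, and 33.3% and 42.0%. Member probe sets thus did not agree better than others throughout.

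**Figure D4:**
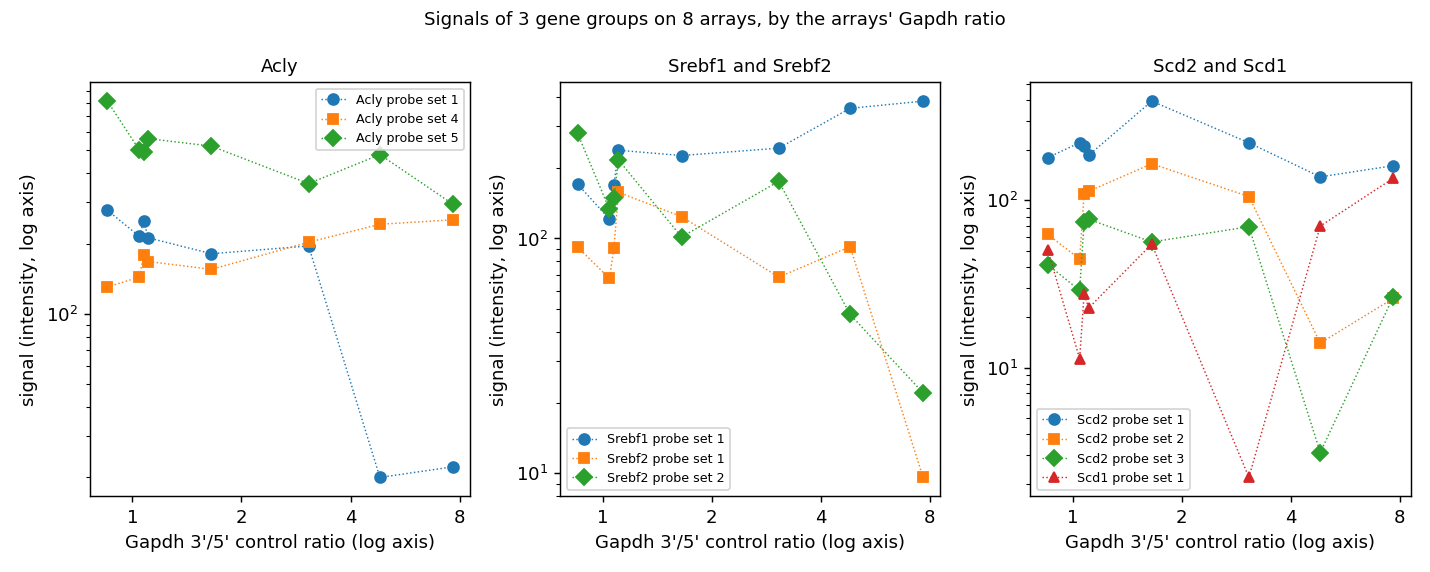
Signals (log axis) of probe sets of Acly, Srebf1 and Srebf2, and Scd2 and Scd1 on the 8 arrays, placed by each array's Gapdh 3'/5' control ratio (log axis). On the 2 arrays at the right, of ratio 4.82 and 7.67, Acly probe set 1 drops to 20 and 22.2 while Acly probe set 4 is at its highest.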

How the data were processed

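Total RNA of the 8 cultures was measured on 1-colour arrays, 1 per group. The deposited values are linear intensity signals per probe set, which the authors had scaled to a common 2% trimmed mean, as the values show; the sources used here do not name the array software. Of 22690 probe sets, 64 controls were set aside. Signals were floored at the pooled 25th percentile (15.5), converted to log2 and tested where the highest of the 8 was at least the pooled median (59.1), which kept 18058 probe sets. The platform annotation named 1 gene for 20380 probe sets, several for 691 and none for 1555; the last 2 kinds were tested unnamed, and 0 of those with several genes held a member. No symbol needed updating.

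Tests used limma 3.58.1 in R 4.3.3 (empirical Bayes with an intensity trend, two-sided), with p-values adjusted by Benjamini-Hochberg over all 18058 probe sets and called at 0.05. Fits of IFN-gamma and genotype took the 4 array pairs as a block term, leaving 3 residual degrees of freedom. A fit with treatments nested within genotype, leaving 2, gave the calcitriol effects and the differences between genotypes. P-values measure the spread between these arrays, which may be technical. Fits were tested on simulated data. The members, lists and naming rule (every called member, the regulators and efflux genes, and synthesis genes above the floor that moved 1 way in 4 of 4 pairs) were chosen with earlier results of these data known. Alternatives were quantile normalization, other floors and filters, no trend, averaging the probe sets of a gene, additive covariates, fits without single pairs, and fits with additive covariates without the untreated arrays or the 2 arrays of highest Gapdh ratio. The number of arrays limits the precision. Plots were made in matplotlib 3.10.9 under Python 3.11.15.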

Additional observations from a re-analysis of the deposited data

Results flagged for a closer look

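The calcitriol effect differed between the genotypes, by the interaction term of limma at an adjusted p under 0.05, for 5 probe sets of the listed genes and the further lists. Of all 18058 tested probe sets, 271 (1.50%) were called in this difference. Only the Abca1 sets belong to the 35 listed genes, of which 59 probe sets were tested. Pltp and Lpl are from the further list of sterol handling. Wild type minus Vdr-/-, the difference was -3.66 log2 (adjusted p = 0.00221) for the second Abca1 probe set and -4.46 (adjusted p = 0.0311) for the dimmest, while the brightest gave -0.39 (adjusted p = 0.807). Pltp gave -4.54 (adjusted p = 0.00205) by its brighter probe set and -2.45 (adjusted p = 0.0367) by the other. Lpl, the lipoprotein lipase gene, gave -1.98 (adjusted p = 0.0412) by the dimmer of its 2 probe sets, which read 4575.6, 1999.5, 3992.6 and 1269.4 in wild type and 2476.1, 5830.5, 3408.3 and 3136.9 in Vdr-/- cells. The brighter Lpl set was not called. Without and with IFN-gamma, it changed with calcitriol by 0.70 and -0.51 log2 in wild type and by -0.40 and -0.16 in Vdr-/- cells. The 2 Lpl sets thus disagreed. The 5 called values rest partly on the untreated arrays, whose labels the Vdr signal goes against within the limits of that check, and on the 2 arrays of highest Gapdh ratio. Without the 2 arrays of highest ratio the values were -3.41, -3.90, -1.93, -3.14 and -1.53 in the same order, and none passed.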

How the results depend on the processing

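The count of 2 members called for IFN-gamma, both lower, was kept by the same 2 genes with quantile normalization, a stricter filter, either other floor, the mean over probe sets and additive covariates. It became 0 with no signal filter, without the intensity trend, without the 2 arrays of highest Gapdh ratio and without the 2 untreated arrays, and ran from 0 to 2 with each pair left out in turn. Fits with fewer arrays had 2 residual degrees of freedom in place of 3, and those without the Gapdh or untreated arrays also took additive covariates in place of the pairs; the cause was not tested. Of 13 called single values of members and sterol handling genes, 0 kept the call with no filter, no trend, or without the Gapdh or untreated arrays, 4 kept it with a stricter filter, 6 with a lower floor and 13 with a higher one. The probe sets called over the whole array fell alike, from 619 to 80 with no filter and 70 with no trend. With the mean over probe sets, the count for the difference of calcitriol effects became 1 in place of 0, by Abca1 at -2.84 log2 (adjusted p = 0.0196). The counts of 0 for genotype, for calcitriol in each genotype and for the difference of IFN-gamma effects stayed 0 under every alternative run. No called value changed sign, but values that had not passed did. Without the 2 arrays of highest Gapdh ratio, Srebf2 turned to -0.85 for IFN-gamma, Abcg1 to -0.06 for genotype, -0.39 for calcitriol in wild type and -0.35 for the difference of calcitriol effects, Abca1 to 0.15 for the difference of IFN-gamma effects, and Srebf2, Insig2 and Nr1h3 to -0.18, 0.11 and -0.02 for calcitriol in Vdr-/- cells. With the mean over probe sets, Abca1 turned to 1.11 for calcitriol in Vdr-/- cells and 0.49 for the difference of IFN-gamma effects, and Insig2 to -0.03 for the latter. Srebf2 turned to -0.16 for that difference with the higher floor. The genotype value turned for Srebf1 with quantile normalization (0.00), and the values with single pairs left out spanned 0 for Srebf1 (-0.39 to 0.33), Srebf2 (-1.54 to 0.41), Abcg1 (-0.17 to 0.22) and Nr1h3 (-0.88 to 0.12). No paired analysis was possible because there were no replicate numbers to pair, with 1 array per group; the pairs of the IFN-gamma and genotype fits were arrays matched on the other factors. Weak signal limits Scd1, Elovl6, Fads2 and Acaca.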
